A study of Homo sapiens with 6 samples.

Results

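CDH1, the gene of E-cadherin, and 9 genes that are used to follow or drive epithelial-mesenchymal transition (EMT) were read out in SW480 cells given Amuc_0904 or buffer. The 10 genes were chosen by symbol (CDH1, CDH2, VIM, FN1, SPARC, ZEB1, ZEB2, SNAI1, SNAI2 and TWIST1), and all 10 were found among the 60664 genes of the deposited table. SW480 is a long-established human cell line that was derived from a colorectal adenocarcinoma, and the labels give its genotype as WT. RNA was sequenced from 3 libraries of cells given Amuc_0904, named in the style of gene locus tags in Akkermansia muciniphila, a gut bacterium, and from 3 libraries of cells given buffer. Dose, time of exposure and whether replicates were separate cultures are not stated, so p-values here measure only the spread between these libraries, which may be technical.

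E-cadherin is a transmembrane protein that joins neighbouring epithelial cells, and its tail is tied to the actin cytoskeleton through the catenins. In EMT, transcription factors of the SNAI, ZEB and TWIST families repress CDH1, while genes such as CDH2 (N-cadherin), VIM (vimentin) and FN1 (fibronectin) are switched on. In carcinoma cells the program can be partial, with epithelial and mesenchymal genes transcribed in the same culture.

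CDH1 fell in cells given Amuc_0904, and it was the 1 gene past the test among the 6 of the 10 that could be tested. The mesenchymal genes VIM, FN1 and SPARC and the repressor genes ZEB1 and SNAI1 did not pass, and each had overlapping groups. Levels are in TPM, a share of the library scaled by transcript length, which allows different genes to be compared. SNAI2 was near 1 TPM, CDH2 and ZEB2 were at or near 0, and TWIST1 was listed at 0 throughout. The filter of at least 1 TPM in at least 3 libraries left 6 genes to be tested, namely CDH1, VIM, FN1, SPARC, ZEB1 and SNAI1. The test was limma on log2(TPM + 1), fitted over 14421 genes with Benjamini-Hochberg adjustment, and an adjusted p under 0.05 counted as a call. Of the 6 tested genes, 1 was called lower and 0 were called higher. Across all tested genes 1.37% were called, with 0.999% lower and 0.368% higher.

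**Figure D1:**
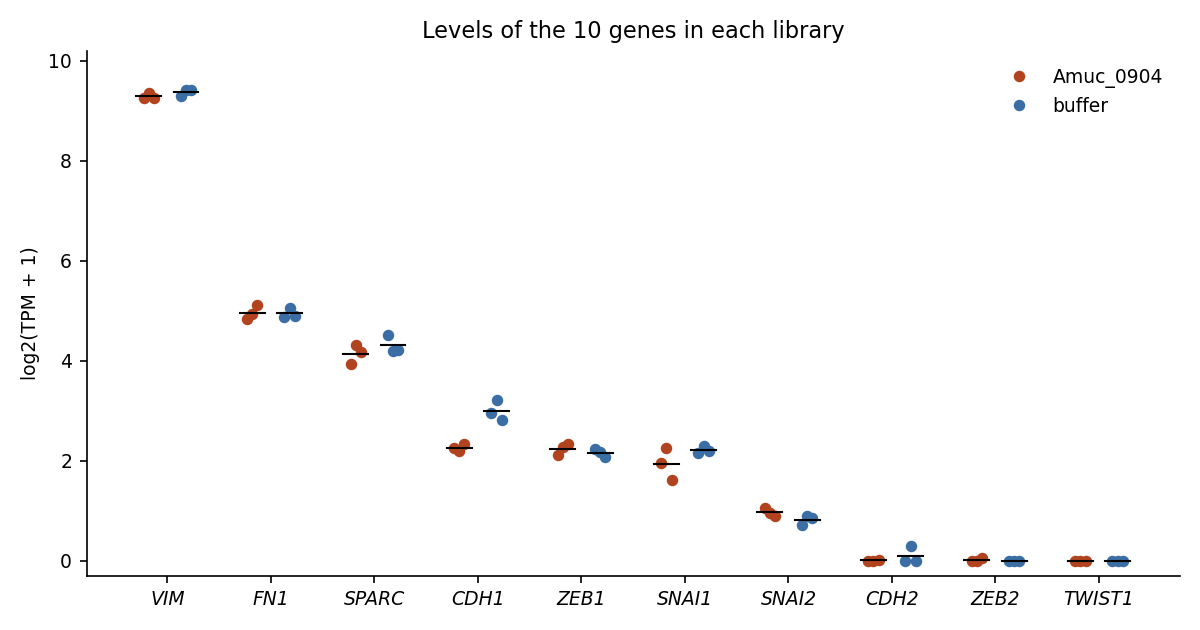
Level of each of the 10 genes as log2(TPM + 1), 1 point per library with the mean of 3 libraries as a bar, Amuc_0904 left of buffer. For CDH1 all 3 Amuc_0904 libraries (3.57 to 4.06 TPM) lie under all 3 buffer libraries (5.99 to 8.33 TPM), while the groups of the other genes overlap or are at or near 0.

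CDH1 (ENSG00000039068; GRCh38 chromosome 16, 68737225 to 68835548, plus strand) was at 3.78, 3.57 and 4.06 TPM in Amuc_0904 replicates 1 to 3, against 6.71, 8.33 and 5.99 TPM in buffer replicates 1 to 3. Every Amuc_0904 library was under every buffer library, and the spread was wider among the buffer libraries (SD 1.20 TPM, n = 3) than among the Amuc_0904 libraries (SD 0.246 TPM, n = 3). Complete separation in this direction was seen for 20.1% of all tested genes. The limma log2 fold change was -0.73 (SE 0.13, 95% interval -1.03 to -0.42, adjusted p = 0.044). The added 1 TPM damps this value, since the plain ratio of group means corresponds to a log2 difference of -0.88, and the mean level fell by 45.7%. By unadjusted p CDH1 ranked 165 among the 14421 genes, of which 197 passed. In bulk RNA, fewer cells with the transcript and less transcript per cell cannot be told apart.

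The CDH1 call rested on a narrow margin. It ended without each single library in turn (log2 fold change -0.82 to -0.61, adjusted p 0.061 to 0.14), and the smallest difference came without buffer replicate 2, the library with the highest CDH1. It also ended after each library was centred on its median (-0.65, adjusted p = 0.062) and after correction of every library for its dependence on transcript GC content (-0.68, adjusted p = 0.053). The longest annotated CDH1 transcript has 48.6% GC, against a median of 49.2% over tested genes. CDH1 overlaps 3 annotated genes (RNA5SP429, FTLP14 and AC099314.1), of which RNA5SP429 and AC099314.1 were listed at 0 in every library, and FTLP14 was above 0 in 1 library, at 0.16 TPM.

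**Figure D2:**
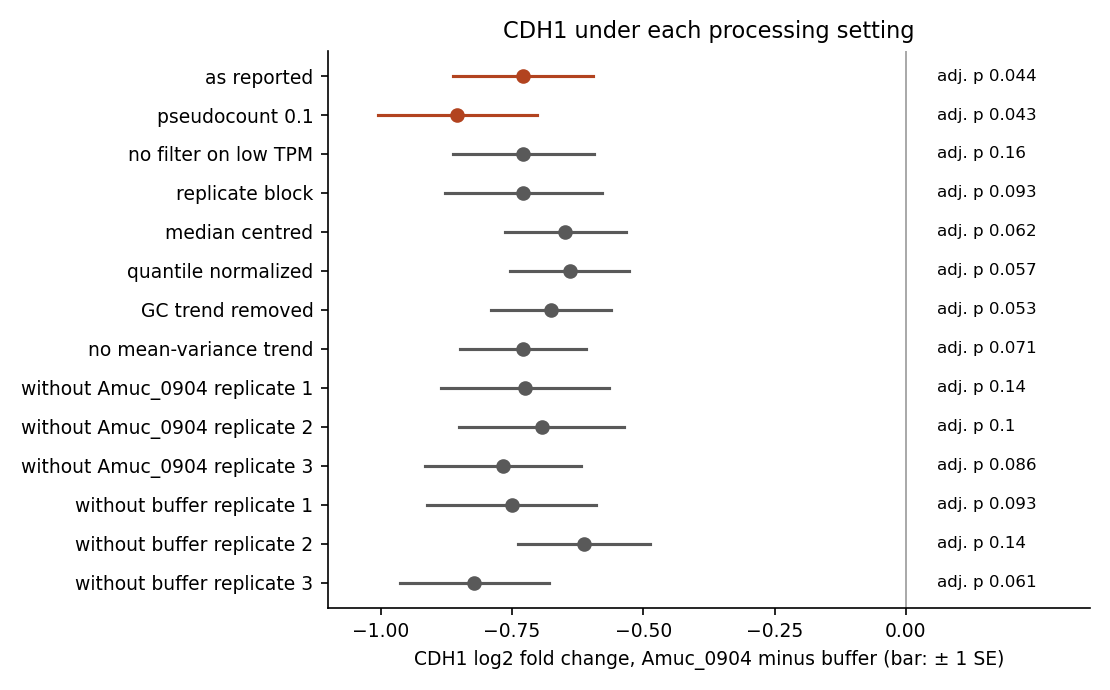
CDH1 log2 fold change (Amuc_0904 minus buffer) in the reported fit and under 13 other settings, with 1 SE as the bar and the limma adjusted p at the right. Every value lies between -0.85 and -0.61, and the adjusted p is under 0.05 in the reported fit and with a pseudocount of 0.1.

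VIM, the intermediate filament gene of mesenchymal cells, was the most abundant of the 10 genes. It stood at 612, 655 and 611 TPM in Amuc_0904 libraries, against 626, 681 and 678 TPM in buffer libraries. The groups overlapped, and the limma log2 fold change was -0.079 (95% interval -0.21 to 0.058, adjusted p = 0.49). Over all libraries its mean level was above that of 98.5% of tested genes. The antisense gene VIM-AS1 overlaps VIM and was between 1.46 and 3.19 TPM.

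FN1, which encodes the matrix protein fibronectin, was at 27.7, 29.5 and 33.7 TPM in Amuc_0904 libraries and at 28.5, 32.1 and 28.9 TPM in buffer libraries. Its groups overlapped almost completely, with a limma log2 fold change of 0.019 (95% interval -0.19 to 0.23, adjusted p = 0.93). SPARC, which encodes a collagen-binding matrix glycoprotein, was at 14.2, 18.9 and 17.2 TPM in Amuc_0904 libraries and at 21.9, 17.3 and 17.5 TPM in buffer libraries. One buffer library was above all others and the remaining values were mixed (limma log2 fold change -0.17, 95% interval -0.46 to 0.13, adjusted p = 0.50). The 7 relatives of SPARC in the SPARC family list stayed under the filter, with at most 0.72 TPM in any library. CDH2, the cadherin that often replaces E-cadherin in EMT, was listed at 0 in 4 of the 6 libraries. Its other values were 0.01 TPM in Amuc_0904 replicate 3 and 0.23 TPM in buffer replicate 2.

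**Figure D3:**
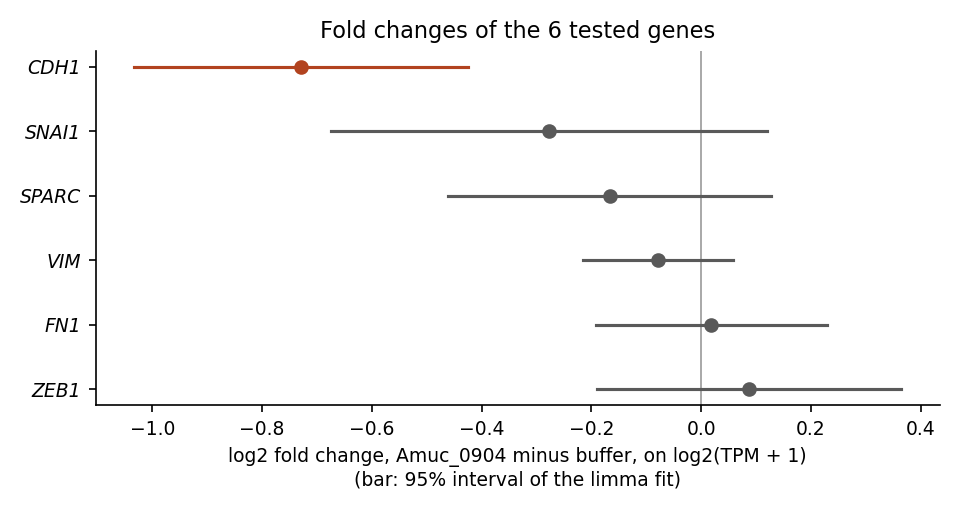
Limma log2 fold change (Amuc_0904 minus buffer, on log2(TPM + 1)) of the 6 tested genes with its 95% interval. The interval of CDH1 (-1.03 to -0.42) lies below 0, and those of SNAI1, SPARC, VIM, FN1 and ZEB1 include 0.

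ZEB1, a zinc finger repressor that binds E-boxes of the CDH1 promoter, was at 3.35, 3.82 and 4.06 TPM in Amuc_0904 libraries, against 3.68, 3.50 and 3.20 TPM in buffer libraries. The groups overlapped (log2 fold change 0.087, 95% interval -0.19 to 0.36, adjusted p = 0.73). Its antisense neighbour ZEB1-AS1 was at a similar level, between 3.11 and 5.57 TPM, and without a stated strand protocol reads of the overlapping part cannot be told apart. ZEB2, the paralog of ZEB1, was listed at 0 in 5 libraries and at 0.04 TPM in Amuc_0904 replicate 3.

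ZEB1 and the miR-200 family repress each other in epithelial cells, and the sequences of that loop are shown because ZEB1 and ZEB2 hold more matches to them than the other 8 genes. The miR-200 family has 2 seeds (bases 2 to 8, in capitals), and MIR200CHG on chromosome 12 is the host gene of 1 miRNA of each seed. The mature sequences, from RefSeq on GRCh38.p14, (chr12:6963742-6963764 and chr12:6964155-6964176, plus strand), are
hsa-miR-200c-3p: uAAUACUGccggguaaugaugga
hsa-miR-141-3p: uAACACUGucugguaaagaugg
The longest annotated 3′ UTR of ZEB1 (2549 bases, GENCODE 29) holds 9 matches to these seeds, 6 of CAGTATT and 3 of CAGTGTT, read on the transcript strand. ZEB2 also holds 9, in 5370 bases. FN1 holds 2, SNAI2 holds 1, and CDH1, CDH2, VIM, SPARC, SNAI1 and TWIST1 hold 0. Of 19145 genes with an annotated 3′ UTR, 28.2% hold at least 1 match, and 6 genes hold 9 or more. Of the 2383 genes with a 3′ UTR length within 20% of that of ZEB1, 46.5% hold at least 1. The first 3 matches in ZEB1, with their flanks and the match in capitals, start at bases 369, 463 and 782 of the UTR:
ZEB1 369: gttttatcttatCAGTATTatcac
ZEB1 463: ctaaatccgcttCAGTATTttatt
ZEB1 782: aatcatcagaatCAGTGTTtgtga
A match is a description of the letters, and mature miRNAs were not analysed here. The host transcript MIR200CHG was at 13.6, 6.68 and 9.27 TPM in Amuc_0904 libraries and at 10.9, 8.93 and 4.90 TPM in buffer libraries. Those groups overlapped (limma log2 fold change 0.24, SE 0.29, adjusted p = 0.68). MIR200CHG was set beside ZEB1 after its values were seen.

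SNAI1, which encodes the repressor Snail, was at 2.87, 3.76 and 2.04 TPM in Amuc_0904 libraries and at 3.42, 3.92 and 3.58 TPM in buffer libraries. Amuc_0904 replicate 2 lay inside the buffer range and the remaining pair lay under it (limma log2 fold change -0.28, SE 0.17, 95% interval -0.67 to 0.12, adjusted p = 0.40). The pseudogene SNAI1P1 was listed at 0 in every library. SNAI2, which encodes the related repressor Slug, was at 1.08, 0.94 and 0.87 TPM in Amuc_0904 libraries, against 0.63, 0.87 and 0.81 TPM in buffer libraries. The groups met at 0.87 TPM. An exact two-sided permutation test of log2(TPM + 1) gave a difference of 0.15 and p = 0.20 (n = 3 each). Because the groups share 0.87 TPM, 0.20 is the smallest p that these values can give, against 0.10 without a tie. The test therefore could not reach a call for SNAI2. TWIST1, a basic helix-loop-helix factor of EMT, was listed at 0 in all 6 libraries.

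By group mean CDH1 was in the fourth place in both groups. In Amuc_0904 libraries the ranges of CDH1 (3.57 to 4.06 TPM), ZEB1 (3.35 to 4.06 TPM) and SNAI1 (2.04 to 3.76 TPM) overlapped, so these 3 neighbours did not differ beyond their spread. In buffer libraries CDH1 (5.99 to 8.33 TPM) lay above ZEB1 (3.20 to 3.68 TPM) and SNAI1 (3.42 to 3.92 TPM) without overlap. VIM, FN1 and SPARC kept the first 3 places in every library, each above the next without overlap. ZEB1 and SNAI1 changed places by group mean, with ZEB1 first in Amuc_0904 libraries and SNAI1 first in buffer libraries, but their ranges overlapped in both groups. CDH2 and ZEB2, near 0, also changed places.

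Ratios between transcripts of the same library do not depend on how libraries are scaled to each other. The log2 ratio of CDH1 to VIM averaged -7.36 ± 0.14 in Amuc_0904 libraries and -6.57 ± 0.24 in buffer libraries (SD, n = 3 each), and the groups did not overlap. Put the other way, there were 151 to 184 VIM transcripts per CDH1 transcript in Amuc_0904 libraries, against 81.7 to 113 in buffer libraries. The log2 ratio of CDH1 to ZEB1 averaged 0.026 ± 0.14 in Amuc_0904 libraries and 1.01 ± 0.21 in buffer libraries, also without overlap. CDH1 was lower relative to the epithelial adhesion gene EPCAM as well, with log2 ratios of -5.67 ± 0.095 in Amuc_0904 libraries and -4.99 ± 0.22 in buffer libraries. Relative to SNAI1 the groups overlapped, with Amuc_0904 replicate 3, the library with the lowest SNAI1, inside the buffer range. These ratios share CDH1 as their numerator and are therefore not independent of each other.

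**Figure D4:**
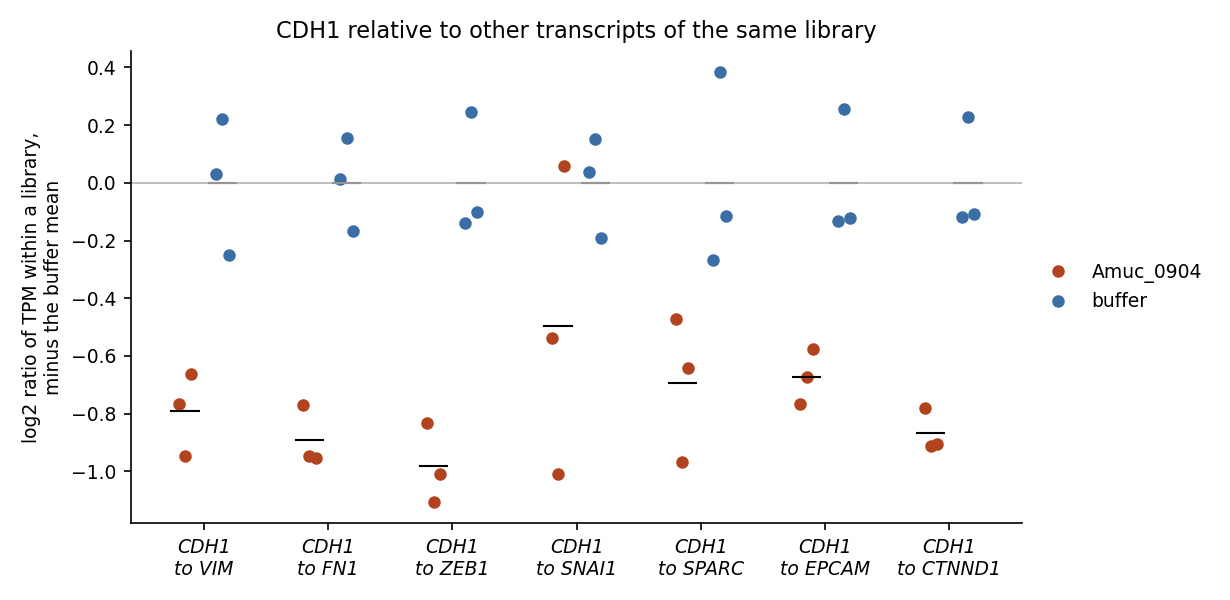
Log2 ratio of CDH1 TPM to that of 7 other genes within each library, minus the mean of the buffer libraries for that ratio, with 1 point per library and bars at group means, Amuc_0904 left of buffer. The groups are separate for VIM, FN1, ZEB1, SPARC, EPCAM and CTNND1 and overlap for SNAI1.

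Other cadherins and the cytoplasmic partners of E-cadherin gave 0 calls in limma. Of 21 other cadherin genes 5 were tested, 0 were called, 1 had an unadjusted p under 0.05, and the median log2 fold change was 0.044, against -0.062 over all tested genes. Of all tested genes 20.8% had an unadjusted p under 0.05. CDH24, a type II cadherin, was at 4.88, 4.52 and 5.59 TPM in Amuc_0904 libraries and at 7.63, 8.67 and 6.56 TPM in buffer libraries, without overlap (adjusted p = 0.082). CDH3 (P-cadherin), the neighbour of CDH1 on chromosome 16, was at 11.03, 9.55 and 8.21 TPM in Amuc_0904 libraries and at 11.01, 13.97 and 10.05 TPM in buffer libraries, with overlap (adjusted p = 0.35). The 16 cadherin genes under the filter reached at most 1.55 TPM in any library, and 5 of them were at 0 throughout.

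Of 14 catenin and nectin genes 11 were tested, 0 were called and 5 had an unadjusted p under 0.05, a level that 20.8% of all tested genes reached. The list's median log2 fold change was -0.22, and 10 of the 11 values were negative, as were 62.5% over all tested genes. CTNNB1 (beta-catenin), which binds the E-cadherin tail, averaged 452 ± 31.2 TPM in Amuc_0904 libraries and 476 ± 12.9 TPM in buffer libraries. JUP (plakoglobin), which can take the same place, was at 36.6, 42.2 and 42.3 TPM in Amuc_0904 libraries and at 49.0, 59.2 and 49.2 TPM in buffer libraries, without overlap (limma adjusted p = 0.093). CTNND1, the gene of p120 catenin, which keeps E-cadherin at the membrane, had a log2 fold change of -0.0042 (adjusted p = 0.98) and was chosen after its values were seen. NECTIN3, a nectin of adherens junctions, had a log2 fold change of -0.69 (limma adjusted p = 0.15) and is among the 5 with an unadjusted p under 0.05. It was at 0.88, 1.05 and 0.83 TPM in Amuc_0904 libraries and at 3.39, 1.27 and 1.97 TPM in buffer libraries. NECTIN3 thus met the filter through the buffer libraries, and its values are not support for a fall.

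Among 13 genes for E-cadherin processing and turnover 10 were tested, 0 were called by limma and 3 had an unadjusted p under 0.05 (median log2 fold change -0.099). Over all tested genes the share under 0.05 was 20.8% and the median -0.062. FURIN, a protease that can remove the E-cadherin propeptide, was at 40.7, 43.9 and 42.2 TPM in Amuc_0904 libraries and at 56.9, 62.1 and 50.9 TPM in buffer libraries, without overlap (adjusted p = 0.055). RAB11A, a GTPase of the recycling endosome, was higher in each Amuc_0904 library (149.27 to 172.47 TPM) than in any buffer library (130.37 to 149.21 TPM) and did not pass (adjusted p = 0.13).

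Of the list genes outside the 10, TCF3 and FOXQ1 passed the test, and both encode transcription factors. TCF3 was 1 call among 5 tested genes of its list and FOXQ1 was 1 among 8, with 0 calls in the other lists. Over all tested genes 1.37% were called, and these 2 calls are not read as a result about the lists. TCF3, whose E2A proteins bind E-boxes and can repress CDH1, fell to 48.7, 56.0 and 48.8 TPM in Amuc_0904 libraries, against 66.5, 70.6 and 69.8 TPM in buffer libraries (limma adjusted p = 0.038, log2 fold change -0.43, SE 0.074). FOXQ1, a forkhead factor tied to EMT in carcinoma cells, fell to 65.7, 66.8 and 64.5 TPM in Amuc_0904 libraries, against 81.3, 87.5 and 82.2 TPM in buffer libraries (limma adjusted p = 0.038, log2 fold change -0.34, SE 0.059). Both had separate groups. FOXQ1 lost its call without each single library (adjusted p 0.079 to 0.14), and TCF3 did so except without Amuc_0904 replicate 2 (adjusted p 0.050 to 0.16). After removal of the GC trend the log2 fold changes were -0.24 for TCF3 (adjusted p = 0.11) and -0.16 for FOXQ1 (adjusted p = 0.17).

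FOXQ1 was the 1 call among 8 tested of 15 other EMT transcription factor genes (median log2 fold change -0.20), and TCF3 the 1 call among 5 tested of 7 E protein and ID genes (median -0.28). ID2, an inhibitor of E proteins, was at 735, 779 and 626 TPM in Amuc_0904 libraries, against 833, 875 and 882.5 TPM in buffer libraries, without overlap (adjusted p = 0.11). Of the 8 tested EMT transcription factor genes 7 had negative log2 fold changes, as did 62.5% of all tested genes. FOXC1 had the largest change of the 8 (log2 fold change -0.39, groups separate, limma adjusted p = 0.10). HMGA2, a chromatin factor that can induce SNAI1, had the 1 positive value. It was slightly higher in each Amuc_0904 library (46.3 to 48.3 TPM) than in any buffer library (41.4 to 43.9 TPM), with an adjusted p of 0.25. TWIST2, SNAI3, FOXC2, GSC, KLF8, SCRT1 and SCRT2 did not reach the filter, with at most 0.83 TPM in any library.

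Of 16 genes for epithelial transcription and splicing factors 11 were tested, 0 were called by limma and 1 had an unadjusted p under 0.05 (median log2 fold change -0.075). That p level was reached by 20.8% of all tested genes. The epithelial splicing factor gene ESRP2 averaged 20.1 ± 0.442 TPM in Amuc_0904 libraries and 21.3 ± 2.44 TPM in buffer libraries. EHF, an epithelial ETS factor, had a log2 fold change of 0.35 (adjusted p = 0.32). Regulators that hold cells in the epithelial state differed in level within their families. GRHL2 and OVOL1 were at or near 0, with means over all libraries of 0.0033 and 0.017 TPM, while their paralogs GRHL1 and OVOL2 were at 4.18 to 5.22 TPM and 3.34 to 4.82 TPM over the 6 libraries. These 4 genes were named after their values were seen.

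For the repressor cofactors of SNAI and ZEB factors, all 19 listed genes were tested, 0 were called by limma and 8 had an unadjusted p under 0.05, with a median log2 fold change of -0.16. Over all tested genes 20.8% had such a p and the median was -0.062. EHMT2, a histone H3 lysine methyltransferase that Snail can recruit, was at 28.97, 28.4 and 24.3 TPM in Amuc_0904 libraries and at 35.3, 36.1 and 33.8 TPM in buffer libraries, without overlap (adjusted p = 0.077). HDAC2, a histone deacetylase, had a log2 fold change of 0.0075 (adjusted p = 0.96). Of 13 genes for SNAI1 kinases and ubiquitin ligases 12 were tested, 0 were called by limma and 3 had an unadjusted p under 0.05 (median -0.15), against the same 20.8% over all tested genes. GSK3B, the kinase that marks Snail for degradation, was at 20.02, 17.5 and 22.4 TPM in Amuc_0904 libraries, against 44.5, 19.3 and 46.0 TPM in buffer libraries. Buffer replicate 2 thus lay within the Amuc_0904 range while the other buffer libraries were far above it (limma log2 fold change -0.75, SE 0.29, adjusted p = 0.19). Without single libraries the GSK3B value ran from -1.15 to -0.54 (limma adjusted p 0.024 to 0.37). It passed only without buffer replicate 2, the library within the Amuc_0904 range, so that fit is not support for a fall.

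Mesenchymal matrix and cytoskeleton genes gave 0 calls in limma among 17 tested of 32, with 6 at an unadjusted p under 0.05 and a median log2 fold change of -0.11. Over all tested genes 20.8% were at that p level and the median was -0.062. MMP9, a gelatinase gene, was at 2.19, 2.09 and 1.70 TPM in Amuc_0904 libraries and at 0.60, 0.99 and 0.56 TPM in buffer libraries, without overlap (log2 fold change 0.81, SE 0.17, adjusted p = 0.057). With the GC trend removed MMP9 passed (log2 fold change 0.996, adjusted p = 0.030). However, MMP9 was under 1 TPM in every buffer library and met the filter only through the Amuc_0904 libraries. Its separation and p-values are therefore not support for a rise. The contractile genes ACTA2 and MYL9 had the opposite sign. ACTA2 averaged 3.71 ± 0.182 TPM in Amuc_0904 libraries and 5.76 ± 0.764 TPM in buffer libraries, and MYL9 averaged 20.01 ± 1.62 TPM in Amuc_0904 libraries and 28.6 ± 3.64 TPM in buffer libraries (adjusted p = 0.076 and 0.065). S100A4, a calcium-binding protein gene common in mesenchymal cells, was the most abundant of the list at 1635 to 2029 TPM over all libraries, with overlapping groups.

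**Figure D5:**
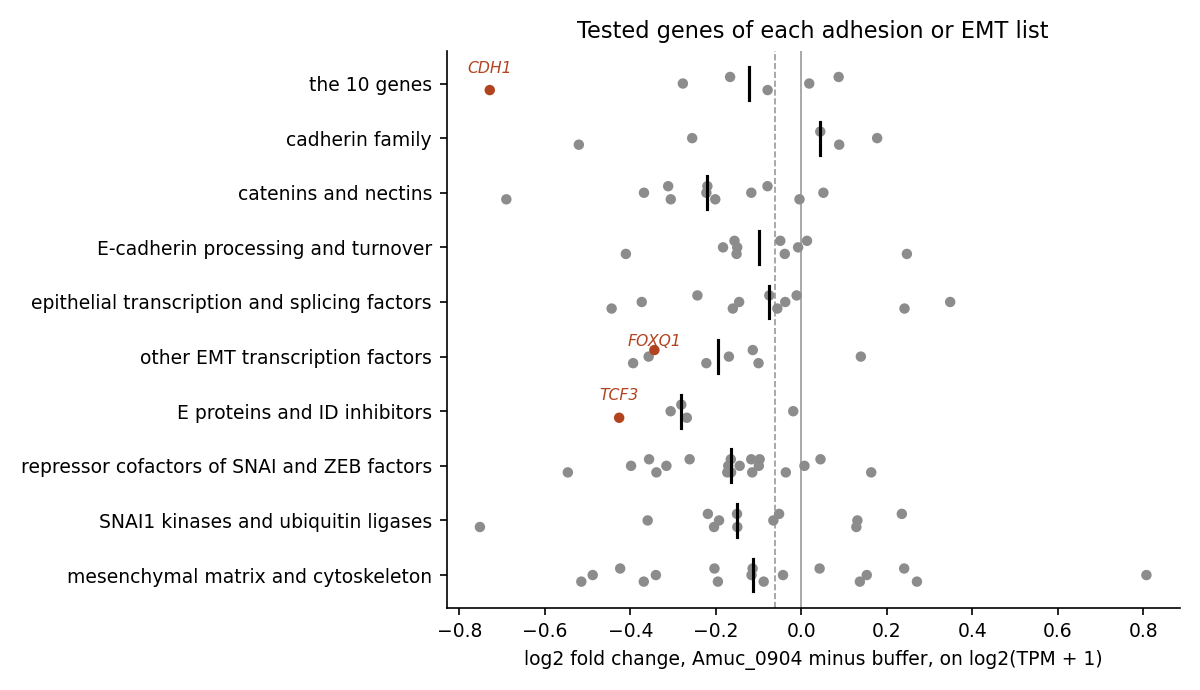
Limma log2 fold change (Amuc_0904 minus buffer) of every tested gene of the 10 genes and of 9 adhesion or EMT lists, 1 point per gene. Black bars are list medians, the dashed line is the median over all tested genes (-0.062), and CDH1, TCF3 and FOXQ1, in orange, are the 3 genes with an adjusted p under 0.05.

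The 5 genes whose pattern over the 6 libraries was most like that of CDH1, among 9856 genes with a symbol and a mean of at least 5 TPM, were RELA, MYO1D, WNT11, BRD1 and ATN1. Their Pearson r with CDH1 on log2(TPM + 1) was between 0.995 and 0.998, as a description over 6 libraries that share the treatment difference, and 966 genes had an r of at least 0.9. Each of the 5 had its lowest values in Amuc_0904 libraries and its highest in buffer replicate 2. RELA, an NF-kB subunit, was at 48.8, 47.4 and 50.3 TPM in Amuc_0904 libraries and at 59.4, 64.5 and 58.2 TPM in buffer libraries (limma adjusted p = 0.063). MYO1D, WNT11 and ATN1 were called lower (limma adjusted p = 0.026, 0.024 and 0.034), and BRD1 was not (limma adjusted p = 0.12). The 5 genes were picked for their likeness to CDH1, so their calls are not support for the CDH1 call.

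The libraries had epithelial markers at high levels, with EPCAM between 181 and 234 TPM and KRT8 between 2828 and 3573 TPM. The intestinal transcription factor gene CDX2 was between 18.2 and 31.2 TPM, while VIL1 was at most 1.09 TPM and KRT20, CDX1 and CDH17 were at most 0.25 TPM. All 5 tested colorectal markers had negative log2 fold changes and 0 were called in limma, with 3 at an unadjusted p under 0.05. Over all tested genes 62.5% of values were negative and 20.8% had an unadjusted p under 0.05. The summed level of this list was 7088 to 7377 TPM in Amuc_0904 libraries and 7900 to 8143 TPM in buffer libraries, and its part in the CDH1 result was not tested. Fibroblast markers summed to 1.74 to 2.30 TPM in Amuc_0904 libraries and to 2.42 to 4.16 TPM in buffer libraries, with COL1A1 the highest (1.28 to 1.86 TPM in Amuc_0904 libraries and 1.67 to 3.16 TPM in buffer libraries), PDGFRB at most 0.62 TPM, and DCN and FAP at 0. Endothelial markers summed to at most 0.88 TPM in any library, with KDR at 0. Leukocyte markers summed to 5.60 to 6.24 TPM in Amuc_0904 libraries and to 3.81 to 4.79 TPM in buffer libraries, mostly CD68 and CD14, with PTPRC at 0. Of the 197 calls over all genes 73.1% were lower, a share of 49.4% after median centring, 54.9% after quantile normalization and 34.2% after removal of the GC trend.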

How the data were processed

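The authors deposited 1 gene table in TPM, quantified with RSEM per the series' design text. The submitters' processing notes list HISAT2, StringTie and edgeR as well, with no version or role, and a mouse build (GRCm38.p6), although the identifiers are human Ensembl genes. TPM keeps no read number, so depth is unknown and no counting interval is given. Between 14244 and 14586 genes per library had at least 1 TPM.

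Values were taken as log2(TPM + 1). Genes with at least 1 TPM in at least 3 libraries entered the fit by limma 3.58.1 (R 4.3.3), two-sided, with variances moderated along a trend with the mean, after a check on simulated data. The 10 genes and the lists were chosen with earlier results of these data known. Named list genes were those called, and otherwise the 3 with the largest change and the 2 with the highest mean of each list, and 1 gene that this rule named is not reported here. Positions, overlaps, UTRs and GC content are from GENCODE 29 on GRCh38. GC content was available for 99.0% of tested genes. Alternatives were a pseudocount of 0.1, no filter, a replicate block, median centring, quantile normalization, GC trend removal (loess, span 0.3), no variance trend, each library left out, and an adjusted p of 0.01. Figures used matplotlib 3.10.9.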

Additional observations from a re-analysis of the deposited data

How the results depend on the processing

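The count of 197 calls over all genes became 9 without the filter, 80 with the replicate block, 85 after median centring, 102 after quantile normalization, 120 after GC trend removal, 44 without a variance trend, 29 at an adjusted p of 0.01, and 35 to 112 without single libraries. The 1 call among the 10 genes (CDH1) stayed with a pseudocount of 0.1 and became 0 in each of these other settings, and 0 in every fit without a single library. CDH1 kept its negative sign throughout, with an adjusted p of 0.093 under the replicate block. The 2 calls among list genes (TCF3 and FOXQ1) stayed with a pseudocount of 0.1. They became 0 without the filter, with the block, and after median centring or quantile normalization. They also became 0 without a variance trend and at an adjusted p of 0.01. After GC trend removal 1 other list gene was called (MMP9), which met the filter only through the Amuc_0904 libraries. Without single libraries the calls among list genes numbered 0 to 1. Those were TCF3 without Amuc_0904 replicate 2, GSK3B without buffer replicate 2 and CDX2 without buffer replicate 3. The cause was not tested, except that without the filter 30992 genes were tested. Same-numbered libraries did not deviate together (correlations of -0.029, 0.075 and -0.094). With 3 libraries per group this cannot settle whether the numbers pair the libraries.

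All values whose sign turned were not called in the reported fit. After centring, log2 fold changes became 0.0018 for VIM, 0.0015 for CTNNB1, 0.0057 for ESRP2 and 0.015 for CSNK1A1, and ESRP2 became 0.0069 after quantile normalization. After GC trend removal they became 0.014 for HGS, 0.10 for ESRP2, -0.031 for HDAC2, 0.072 for TIMP1 and 0.013 for KRT18. Without single libraries the values ran from -0.058 to 0.080 for FN1, -0.79 to 0.19 for CTNNA2, -0.14 to 0.013 for ESRP2, -0.026 to 0.054 for HDAC2 and -0.10 to 0.22 for CD14.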

Other observations

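CTNNA2, an alpha-catenin gene, was spread widely within the group given Amuc_0904, at 3.90, 9.20 and 18.2 TPM, against 12.5, 8.63 and 13.0 TPM in buffer libraries (limma adjusted p = 0.72). The precursor entry MIR200B was listed at 37.4 TPM in buffer replicate 3 and at 0 in the other 5 libraries, and the entries MIR200A, MIR200C, MIR141 and MIR429 were listed at 0 in every library. CDX2, an intestinal transcription factor gene, was at 18.2, 19.3 and 18.5 TPM in Amuc_0904 libraries and at 30.7, 31.2 and 22.0 TPM in buffer libraries (limma adjusted p = 0.077). Without single libraries its log2 fold change ran from -0.70 to -0.46 (limma adjusted p 0.029 to 0.25). CDX2 passed only without buffer replicate 3, the buffer library nearest the Amuc_0904 values, so that fit is not support for a fall. CD68, a lysosomal membrane protein gene of macrophages and other cells, was at 3.11, 2.33 and 3.08 TPM in Amuc_0904 libraries and at 1.68, 1.10 and 1.48 TPM in buffer libraries (limma adjusted p = 0.077).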
